A study of Homo sapiens with 6 samples.

Results

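Aldo-keto reductases are cytosolic enzymes that use NADPH to reduce aldehydes and ketones to alcohols. The human family includes reductases of sugars, of reactive aldehydes from lipid peroxidation, of retinaldehyde, of steroid hormones and of prostaglandins, so that a single cell usually holds several of them with overlapping substrates. In human cancer cells several members, AKR1B10 and the AKR1C genes among them, are known targets of NRF2, the transcription factor of the response to oxidants and electrophiles.

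The 7 genes described here are AKR1A1, AKR1B1, AKR1B10, AKR1C1, AKR1C2, AKR1C3 and AKR7A2, out of 31582 genes in the deposited count table. They were taken by symbol, and were chosen by their measured expression in these same knockdown and control libraries, so their differences are given as a description and no p-value is attached to a member. All 7 passed the filter on low counts. The cells were MDA-MB-231, an established human breast cancer line that is mesenchymal and lacks hormone receptors. The knockdown libraries came from MDA-MB-231-shCALR cells, in which a short hairpin RNA lowers CALR, the gene of the endoplasmic reticulum chaperone calreticulin, and the controls came from MDA-MB-231-NTC cells. Both were grown in DMEM with 10% FBS, and polyadenylated RNA was sequenced in 3 libraries per group. The labels do not say whether these came from separate cultures or carried more than 1 hairpin sequence, so the errors below measure the spread between these libraries, which may be partly technical. The series title places CALR under HIF-1 and upstream of Wnt/beta-catenin signalling, and the sequencing compared the transcripts of the knockdown cells with those of the controls.

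Total counts lay between 37295097 and 42425310 in the knockdown libraries and between 34639090 and 40732131 in the control libraries. CALR had 493, 66.4 and 110 CPM (counts scaled to library depth) in knockdown replicates 1, 2 and 3, or 47.5%, 6.39% and 10.6% of its control mean, and 1213, 979 and 926 CPM in control replicates 1, 2 and 3, so that the first knockdown library kept far more of the targeted transcript than the other two. Markers of the line matched the label in FPKM, fragments scaled to transcript length and library depth: VIM, CD44 and AXL lay between 68 and 1317 FPKM in knockdown and between 60.2 and 847 FPKM in control libraries. Of 5 genes that the line should lack or hold at low levels, ESR1, PGR and CDH1 reached at most 0.20 FPKM in knockdown and 0.12 FPKM in control libraries, while ERBB2 and EPCAM lay between 2.61 and 6.90 FPKM in knockdown and between 3.74 and 6.54 FPKM in control libraries. Of 8 markers of blood, endothelial and liver cells 7 had a row, and the highest value was 0.54 FPKM in knockdown and 0.22 FPKM in control libraries, both for PECAM1.

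Part of the family is so alike in sequence that the counts of single members have to be read with it in mind. The AKR1C genes form a cluster on chromosome 10 of GRCh38 (GENCODE 29), with AKR1C1 (ENSG00000187134.12) at chr10:4963253-4983283 on the plus strand, AKR1C2 (ENSG00000151632.16) at chr10:4987400-5018031 on the minus strand and AKR1C3 (ENSG00000196139.11) at chr10:5035354-5107686 on the plus strand. AKR1B1 (ENSG00000085662.13, chr7:134442350-134459284, minus strand) and AKR1B10 (ENSG00000198074.9, chr7:134527592-134541408, plus strand) lie together on chromosome 7. AKR1A1 (ENSG00000117448.13, chr1:45550543-45570049, plus strand) and AKR7A2 (ENSG00000053371.12, chr1:19303965-19312146, minus strand) are both on chromosome 1. None of the 7 shares exon bases with another annotated gene on either strand in GENCODE 29.

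AKR1C1 and AKR1C2 differ at 19 of 972 coding bases (98% identical), with a stretch of 189 bases without a difference. AKR1C3 is 91.9% identical to AKR1C1 and 91.3% to AKR1C2, whereas AKR1B1 and AKR1B10 are 75.3% identical over 951 bases. Of all distinct 75-base stretches in the annotated transcripts, 21.9% of those of AKR1C1 and 30.1% of those of AKR1C2 also occur in another gene, in nearly every case each other (21.7% and 29.1%). The share was 2.87% for AKR1C3, 6.07% for AKR1B10 (its neighbour AKR1B15 and the pseudogene AKR1B10P1), 2.87% for AKR7A2, 0.23% for AKR1B1 and 0 of 3636 for AKR1A1. With stretches of 50 bases the shares were larger, at 28.6% for AKR1C1, 38.9% for AKR1C2, 4.53% for AKR1C3, 14.6% for AKR1B10, 5.84% for AKR7A2, 5.45% for AKR1B1 and 1.61% for AKR1A1. Reads from such stretches can be assigned to either gene. Neither the read length nor how the authors' counting treated such reads is given in the sources used here. The 75 coding bases in which AKR1C1 and AKR1C2 differ most, coding positions 88 to 162 counted from the A of the start codon, are shown because they hold 10 of the 19 coding differences. Capitals mark the differing bases.
AKR1C1: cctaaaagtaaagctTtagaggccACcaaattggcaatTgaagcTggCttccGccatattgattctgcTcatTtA
AKR1C2: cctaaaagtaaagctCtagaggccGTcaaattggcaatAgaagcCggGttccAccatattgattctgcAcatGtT

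The resemblance extends to the promoters at the RefSeq starts. In GENCODE 29 AKR1C2 begins farther upstream, at 5018031, and that start is not covered. The 250 bases before the RefSeq start of AKR1C1 (chr10:4963165-4963414, plus strand) and of AKR1C2 (chr10:5003858-5004107, minus strand), read from RefSeq on GRCh38.p14, align over 246 bases with 1 difference. They are shown because the fitted differences of the genes behind them had opposite signs, with the capital letter marking that single difference. The negative sign of AKR1C2 rested on control replicate 1, without which its log2 fold change was −0.08.
AKR1C1: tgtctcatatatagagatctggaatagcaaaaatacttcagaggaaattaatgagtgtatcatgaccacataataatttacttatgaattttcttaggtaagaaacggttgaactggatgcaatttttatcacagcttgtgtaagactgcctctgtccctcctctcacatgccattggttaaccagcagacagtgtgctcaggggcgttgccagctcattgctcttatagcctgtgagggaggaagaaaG
AKR1C2: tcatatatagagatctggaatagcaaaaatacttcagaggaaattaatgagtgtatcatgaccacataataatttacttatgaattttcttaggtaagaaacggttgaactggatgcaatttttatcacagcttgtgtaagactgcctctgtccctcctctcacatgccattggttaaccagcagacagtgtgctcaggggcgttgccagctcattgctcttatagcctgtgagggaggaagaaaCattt

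The promoter windows (250 bases before and 50 after the start) were searched on both strands for TGACNNNGC, the core of the antioxidant response element that NRF2 binds. A match was present in 13.3% of 35116 RefSeq windows. Of the 6 members with a window, AKR7A2 held 3 matches that do not overlap one another, and AKR1A1, AKR1B1, AKR1C1, AKR1C2 and AKR1C3 held 0. The absence of these letters says nothing about sites outside the window, nor about the GENCODE 29 starts of AKR1C2 and AKR1C3 farther upstream. AKR1B10 had no window in the table used. The AKR7A2 bases before the start (chr1:19312147-19312396, minus strand) are shown with the matches in capitals.
AKR7A2: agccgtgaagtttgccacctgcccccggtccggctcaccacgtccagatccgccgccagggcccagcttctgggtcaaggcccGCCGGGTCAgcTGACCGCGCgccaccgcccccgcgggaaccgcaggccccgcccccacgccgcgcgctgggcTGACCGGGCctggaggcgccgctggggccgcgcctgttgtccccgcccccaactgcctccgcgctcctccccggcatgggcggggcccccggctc

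**Figure D1:**
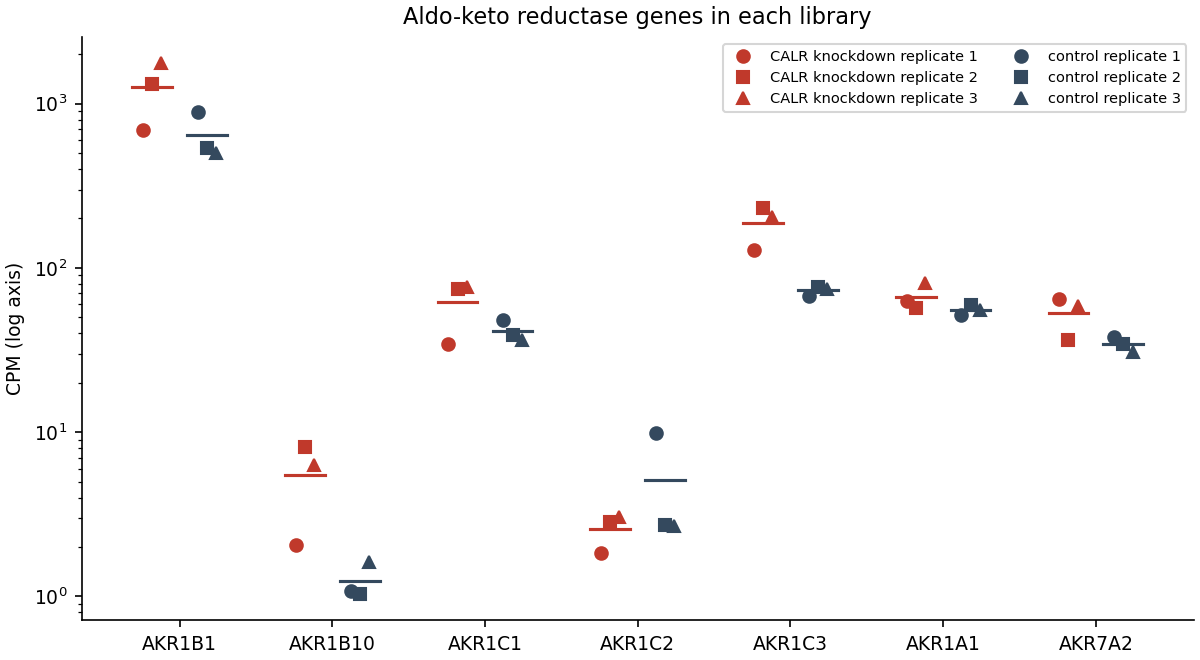
Scaled counts (CPM, log axis) of the 7 genes in each library, with CALR knockdown libraries in red left of the control libraries in dark blue, and lines at group means. AKR1B10 and AKR1C3 have all 3 knockdown libraries above all 3 control libraries, and AKR1C2 has 1 control library at 9.95 CPM far above the other five.

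Levels between genes were compared per length, as FPKM. In RNA pooled from many cells, fewer cells that hold a transcript and less of it per cell cannot be told apart. AKR1B1, the aldose reductase that turns glucose into sorbitol, dominated the family with 432, 912 and 1047 FPKM in the knockdown libraries and 595, 375 and 356 FPKM in the control libraries. It made up 78.1% to 87.3% of the summed FPKM of the 7 genes in knockdown and 80.7% to 87.6% in control libraries, and by mean FPKM it ranked 52nd of 31356 genes in knockdown and 91st in control libraries. AKR1C3 came second with 50.05, 98.77 and 75.47 FPKM in knockdown and 28.25, 33.21 and 32.53 FPKM in control libraries. In both groups its lowest library was above the highest of AKR7A2.

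AKR7A2 (34.8 ± 8.34 FPKM in knockdown, 24.7 ± 1.94 FPKM in control, SD, n = 3 each) and AKR1A1 (24.9 ± 2.95 FPKM in knockdown, 22.8 ± 2.08 FPKM in control) were neighbours whose ranges overlapped in both groups. AKR1C1 followed at 7.78 ± 3.11 FPKM in knockdown and 5.65 ± 0.694 FPKM in control libraries. At the bottom, AKR1B10 and AKR1C2 overlapped in the controls, at 0.65 to 1.02 and 0.59 to 2.07 FPKM. In the knockdown libraries they did not overlap, with AKR1B10 at 1.15 to 4.99 FPKM and AKR1C2 at 0.36 to 0.60 FPKM. Summed over all 7 genes, the family stood at 554, 1075 and 1199 FPKM in knockdown and 680, 464 and 441 FPKM in control libraries, with overlapping groups. Summed over the 6 genes without AKR1B1, it stood at 121, 164 and 153 FPKM in knockdown and 84.5, 89.4 and 85.1 FPKM in control libraries, apart in all libraries. Since this contrast chose the members, nothing is read from that separation.

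Fold changes below are from edgeR's quasi-likelihood fit of the whole count table, knockdown over control on the log2 scale with the SE of 3 against 3 libraries, and CPM are scaled with TMM factors. Of the 16394 genes tested, 0 (0%) passed an adjusted p of 0.05 in that test, while 2546 had an unadjusted p under 0.05. CALR, the targeted gene, did not pass either (log2 fold change −2.22 ± 0.64, adjusted p = 0.209 from edgeR). A gene that did not pass is therefore not shown to be unchanged. DESeq2 called 530 and limma-voom 0, and edgeR called 2604 without knockdown replicate 2 and 138 without knockdown replicate 3. Of the 7 members 0 passed. With no adjustment, 4 lay above and 0 below the controls at p under 0.05, against a background of 8.17% higher and 7.36% lower over all genes. Groups did not overlap for 2 members, both higher, against 11.3% higher and 11.2% lower over all genes. Since this contrast chose the members, nothing is read from these counts. Of the 7 fitted log2 fold changes 6 were positive, against 8181 of 16394 over all genes tested. Their median was 0.63, against −0.001 over all genes. The same limit of selection holds for these values.

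AKR1C3, which makes testosterone from androstenedione and also acts as a prostaglandin F synthase, was among the members whose groups lay apart. It had 129, 232 and 205 CPM in the knockdown libraries and 67.8, 76.9 and 74.1 CPM in the control libraries. Every knockdown library was above every control, and the controls lay close together. The log2 fold change was 1.37 ± 0.22 (SE), and it stayed between 1.20 and 1.59 with any 1 library left out.

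AKR1B10, a reductase of retinaldehyde and lipid aldehydes that is known for its high level in liver and lung tumours, differed by more but at a far lower level. Its raw counts were 72, 329 and 236 in knockdown and 41, 38 and 71 in control libraries, or 2.06, 8.17 and 6.33 CPM in knockdown and 1.08, 1.04 and 1.63 CPM in control libraries. The groups did not overlap, but knockdown replicate 1 lay close to control replicate 3. The log2 fold change was 2.14 ± 0.49 (SE), between 1.74 without knockdown replicate 2 and 2.53 without knockdown replicate 1. Its far more abundant neighbour AKR1B1 shares no 75-base coding stretch with it, and the longest identical run of the pair is 22 bases.

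AKR1B1 had 688, 1323 and 1760 CPM in the knockdown libraries and 885, 537 and 501 CPM in the control libraries. Knockdown replicates 2 and 3 were above all controls, whereas replicate 1 lay inside the control range. Its log2 fold change was 0.97 ± 0.35 (SE), with 0.67 without knockdown replicate 3 and 1.27 without control replicate 1.

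AKR1C1, which inactivates progesterone, showed the same split among the knockdown libraries. It had 34.5, 74.9 and 76.0 CPM in knockdown and 48.5, 39.2 and 36.5 CPM in control libraries, so that knockdown replicate 1 was below every control and the other two above every control. The log2 fold change was 0.58 ± 0.29 (SE), and 0.87 without knockdown replicate 1.

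AKR1C2, which inactivates dihydrotestosterone, was the only member whose fitted value was negative. It had 1.83, 2.83 and 3.03 CPM in the knockdown libraries and 9.95, 2.72 and 2.70 CPM in the control libraries. The knockdown range covered both other controls, and the difference came from control replicate 1. The log2 fold change was −1.0 ± 0.52 (SE), and −0.08 without that library. In that same control library AKR1C1, at 48.5 CPM, was the highest of the controls and AKR1C3, at 67.8 CPM, the lowest. AKR1C2 had 376 counts there, and 99 and 118 in the other controls.

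AKR1A1, an aldehyde reductase that also reduces glucuronate, differed by the least in its fitted value among the 7. It had 62.7, 56.9 and 80.6 CPM in the knockdown libraries and 51.7, 59.8 and 55.5 CPM in the control libraries, with overlapping groups and a log2 fold change of 0.26 ± 0.18 (SE). AKR7A2, which reduces succinic semialdehyde and the dialdehyde of aflatoxin, had 65.1, 36.2 and 58.9 CPM in the knockdown libraries and 38.1, 34.5 and 30.8 CPM in the control libraries. Here knockdown replicate 2 was the one inside the control range. The log2 fold change was 0.63 ± 0.23 (SE), and it was 0.85 without knockdown replicate 2.

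**Figure D2:**
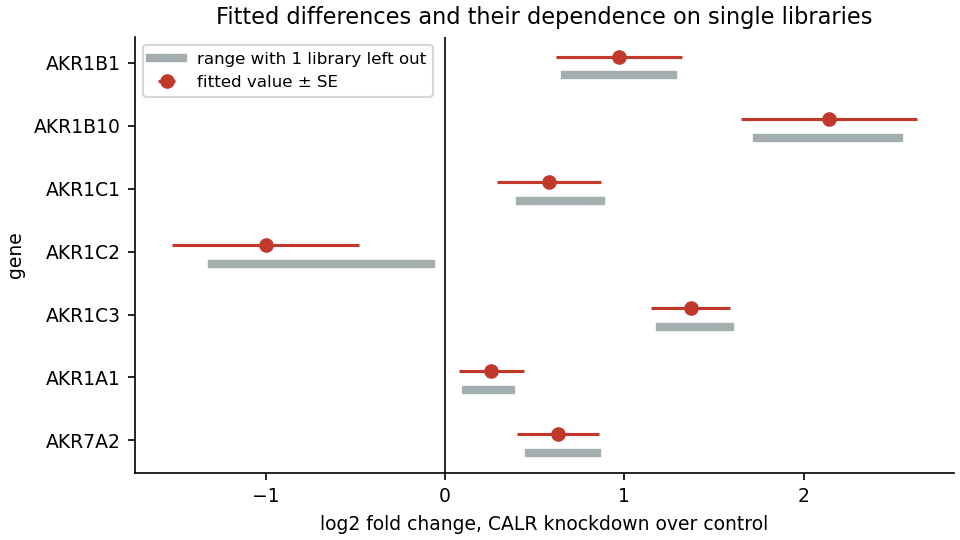
Fitted log2 fold change of each gene, CALR knockdown over control, as a red point with its SE, and the range of values with 1 library left out as a grey bar. The range of AKR1C2 runs from −1.30 to −0.08 and ends next to 0, while the ranges of AKR1B10 and AKR1C3 lie above 1.

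The knockdown libraries differed among themselves in a way that the group means hide. Relative to the control mean, knockdown replicates 2 and 3 were higher by 2.69 and 2.32 for AKR1B10, 1.67 and 1.49 for AKR1C3, 1.09 and 1.51 for AKR1B1 and 0.86 and 0.89 for AKR1C1 (log2 CPM). Replicate 1 stood at 0.72, 0.82, 0.15 and −0.25 for the same genes. In the same scale CALR was at −3.96 and −3.23 in replicates 2 and 3 and at −1.06 in replicate 1. For these 4 genes the library with the most CALR left was the one nearest the controls. How many of all genes tested share this was not counted. Between replicates 2 and 3 AKR1B1 and AKR1C1 were higher in replicate 3, although replicate 2 had less CALR. The other 3 members were not nearest the controls in replicate 1. AKR7A2 stood at 0.92, 0.08 and 0.78 and AKR1A1 at 0.17, 0.03 and 0.54 in replicates 1, 2 and 3, both nearest the controls in replicate 2, and AKR1C2 stood at −1.17, −0.56 and −0.46, farthest from them in replicate 1. Whether the remaining CALR plays a part in these differences was not tested.

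**Figure D3:**
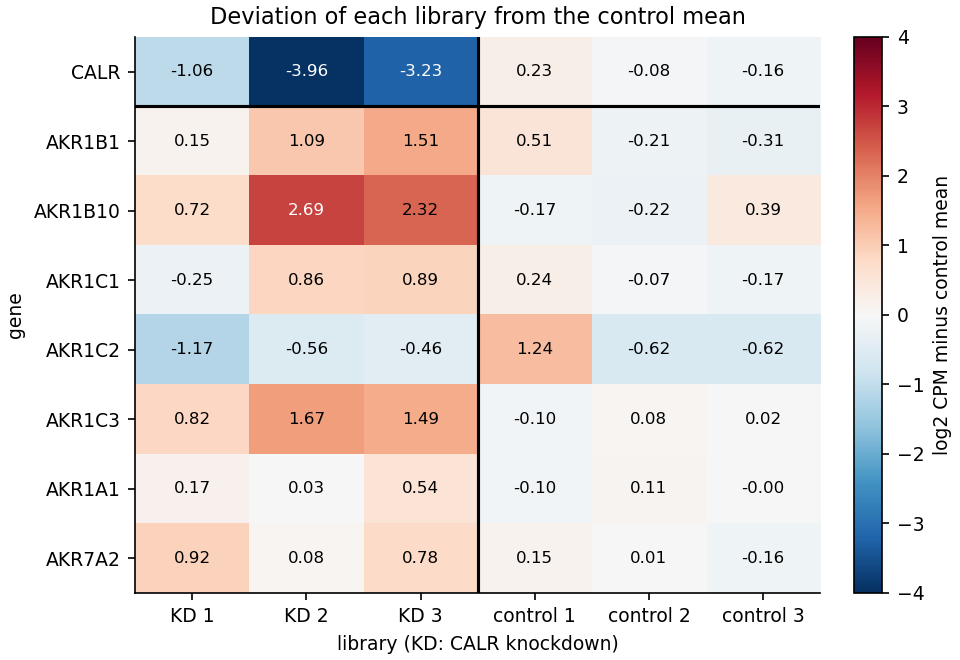
Log2 CPM of CALR and of the 7 members in each library minus the mean of the control libraries, red above and blue below. Knockdown (KD) replicates 2 and 3 are the reddest columns for AKR1B10, AKR1C3, AKR1B1 and AKR1C1, and AKR1C2 is red only in control replicate 1, at 1.24.

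Because library scaling cancels within a library, the make-up of the AKR1C counts was also compared directly. AKR1C3 took 78.0%, 74.9% and 72.2% of the summed counts of AKR1C1, AKR1C2 and AKR1C3 in knockdown and 53.7%, 64.7% and 65.4% in the control libraries. The groups did not overlap, and the exact binomial 95% intervals, which cover counting error only, reached down to 71.3% in knockdown and up to 66.7% in control libraries. AKR1C1 took 20.9%, 24.2% and 26.8% in knockdown and 38.4%, 33% and 32.2% in control libraries. AKR1C2 took 1.11%, 0.915% and 1.07% in knockdown and 7.88%, 2.29% and 2.39% in control libraries. Relative to both other genes, AKR1C3 counts were higher in every knockdown library than in any control library, replicate 1 included. Since this contrast chose the members, the separation is a description of these libraries and nothing further is read from it. Per length, AKR1C3 stood at 11.7, 9.71 and 8.47 times the FPKM of AKR1C1 in knockdown and at 4.39, 6.15 and 6.37 times in control libraries.

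**Figure D4:**
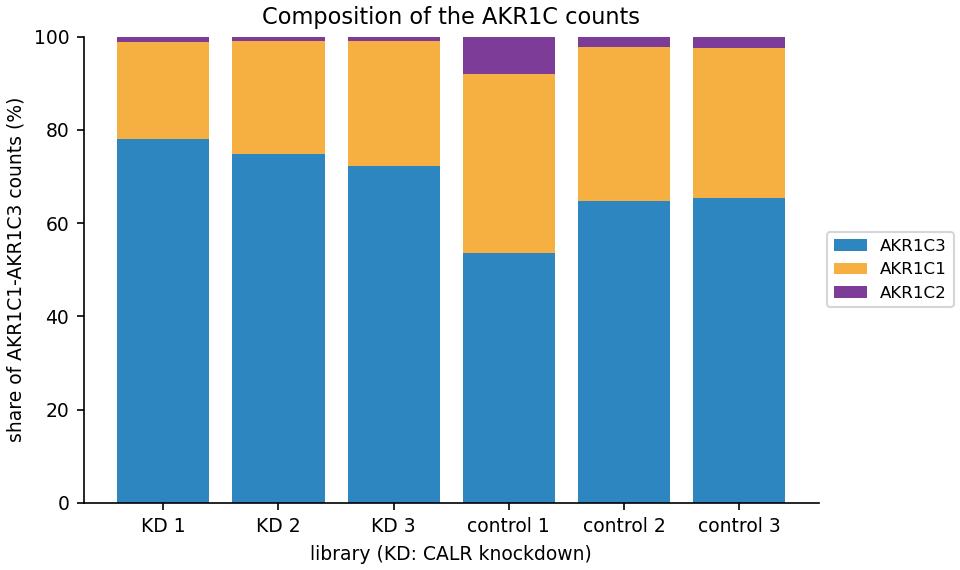
Share of AKR1C3, AKR1C1 and AKR1C2 in their summed counts, in percent, with 1 bar per library and the knockdown (KD) libraries on the left. AKR1C3 takes 72.2% to 78.0% of the counts in knockdown and 53.7% to 65.4% in control libraries.

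The table holds 9 further rows whose symbol begins with AKR. Of these, 6 were too low to test, with 1 to 36 counts over all 6 libraries (AKR1B15, AKR1B1P1, AKR1C5P, AKR1C8P, AKR1D1 and AKR7L). AKR1E2, a little-studied aldo-keto reductase, had 3.49, 2.36 and 1.72 CPM in knockdown and 0.952, 1.62 and 0.917 CPM in control libraries, with groups apart and a log2 fold change of 1.12 ± 0.38 (adjusted p = 0.239 from edgeR). The pseudogene AKR1C7P (0.244 ± 0.102 CPM in knockdown, 0.394 ± 0.159 CPM in control, SD, n = 3 each) and AKR7A3, the paralog of AKR7A2 (0.320 ± 0.115 CPM in knockdown, 0.250 ± 0.058 CPM in control), were near the floor with overlapping groups. Together with the potassium channel subunits KCNAB1, KCNAB2 and KCNAB3, which belong to the superfamily by sequence, 5 of 12 such genes were tested, with 1 above and 0 below the controls at p under 0.05 before adjustment.

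To set the members beside the genes they work with, lists of related genes were described by medians and by how many genes had an unadjusted p under 0.05, to be read beside the background of 8.17% (higher) and 7.36% (lower). The lists were drawn up with earlier results of these data known, so their counts and medians are a description only. None of their genes passed the adjusted threshold in edgeR's test of all 6 libraries. With 1 library left out the whole table was refitted, but adjusted p-values were drawn up only for list genes picked by the naming rule. The other list genes are not covered here. Of those picked, HMOX1, PIR, TALDO1, ME1, BACH1, NFE2L2, DPP3, PGD, ALDH2, ALDH3B1, DHRS4, SLC6A6, RDH14 and XYLB passed the threshold without knockdown replicate 2, and PIR also without knockdown replicate 3. Of 28 tested NRF2 targets outside the family 14 were higher and 0 lower. A positive log2 fold change was found for 26 of them, against 8181 of 16394 over all genes tested. Their median was 0.59, between 0.42 and 0.62 with 1 library left out. Relative to the control mean, the list median of each knockdown library was 0.19, 0.60 and 0.72 (replicates 1, 2 and 3), and that of each control library −0.17, 0.13 and 0.00. HMOX1, which breaks down heme, had 55.2, 104 and 107 CPM in knockdown and 20.5, 33.3 and 31.6 CPM in control libraries (log2 fold change 1.64 ± 0.29, adjusted p = 0.145 from edgeR). PIR, an iron-binding nuclear protein, had 21.9, 34.7 and 19.8 CPM in knockdown and 10.3, 10.0 and 9.19 CPM in control libraries (1.37 ± 0.25). TALDO1 of the pentose phosphate pathway (0.82 ± 0.19) and the malic enzyme ME1 (0.90 ± 0.21) also had all 3 knockdown libraries above the controls. NQO1, a quinone reductase often read as an NRF2 marker and named here after its values were seen, was at 528 ± 178 CPM in knockdown and 232 ± 63.3 CPM in control libraries. Other genes of the list had values near or below 0: GCLC and SLC7A11, of glutathione synthesis and cystine uptake, were at −0.33 ± 0.22 and 0.04 ± 0.46 on the log2 scale. The lowest of the list was ABCC2 at −0.82 ± 0.45. GCLM, also of glutathione synthesis, went the other way at 1.15 ± 0.46. Its groups overlapped, and it lay between 0.37 and 1.48 with 1 library left out. With 1 library left out GCLC lay between −0.51 and −0.14 and SLC7A11 between −0.84 and 0.38. SLC7A11 had 62.9, 260 and 83.4 CPM in knockdown and 117, 123 and 156 CPM in control libraries, with only knockdown replicate 2 above the controls.

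The regulators of that pathway went both ways. Of 12 tested, 2 were higher and 1 lower, with a median of 0.009 that was −0.13 with library size alone. The median over all genes tested was also −0.13 with that scaling. NFE2L2, which encodes NRF2, had 84.8, 151 and 91.7 CPM in knockdown and 142, 126 and 143 CPM in control libraries, with overlapping groups (−0.33 ± 0.23). The value moved with single libraries and was −0.63 without knockdown replicate 2 (adjusted p = 0.0241 from edgeR), and −0.18 without knockdown replicate 1. BACH1, a repressor that competes for the same elements, had 9.83, 20.6 and 8.67 CPM in knockdown and 36.1, 31.5 and 33.6 CPM in control libraries, below the controls in all 3 (−1.37 ± 0.32, adjusted p = 0.17 from edgeR). KEAP1, which marks NRF2 for degradation, was at 168 ± 34.5 CPM in knockdown and 122 ± 19.5 CPM in control libraries (0.46 ± 0.20), and DPP3, which binds KEAP1, had a log2 fold change of 0.62 ± 0.16.

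Genes that supply NADPH, the cofactor of the family, had 4 of 12 tested members higher and 1 lower, with a median of 0.34 (0.17 without knockdown replicate 1). The cytosolic suppliers PGD (0.64 ± 0.17) and IDH1 (0.58 ± 0.16) had all 3 knockdown libraries above the controls, as did ME1. The lower one was ALDH1L2, a mitochondrial formyltetrahydrofolate dehydrogenase, with 0.40, 0.348 and 0.402 CPM in knockdown and 1.59, 0.604 and 0.596 CPM in control libraries. Control replicate 1 stood apart, and the log2 fold change of −1.27 ± 0.48 lay between −1.51 and −0.64 with 1 library left out. ME1 and PGD are on the NRF2 list too, so those lists are not independent. Other enzymes of carbonyl and aldehyde metabolism had 4 of 24 higher and 2 lower and a median of 0.14. With library size alone it was 0.00, against −0.13 over all genes tested. The mitochondrial aldehyde dehydrogenase ALDH2 had 57.8, 114 and 74.8 CPM in knockdown and 32.9, 36.0 and 35.6 CPM in control libraries (1.24 ± 0.25). ALDH3B1 (0.73 ± 0.20) and the dehydrogenase DHRS4 (0.73 ± 0.25), which has near-identical copies, were higher in all 3, and DHRS9, a retinol dehydrogenase low in both groups, was at 0.406 ± 0.197 CPM in knockdown and 1.19 ± 0.182 CPM in control libraries. GLO1, the glyoxalase that clears methylglyoxal, was at 321 ± 11.4 CPM in knockdown and 419 ± 32.8 CPM in control libraries, and ALDH7A1, the fourth higher gene, had overlapping groups.

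Around AKR1B1, 3 of 9 tested genes listed for the polyol pathway and osmolytes were higher and 0 lower. Their median of 0.40 was 0.16 without knockdown replicate 2, 0.09 with limma-voom, and −0.02 and −0.07 on the log2(FPKM + 1) and log2(FPKM + 0.1) scales. Over all genes tested the median was −0.08 and −0.11 on those FPKM scales. SORD, the enzyme after aldose reductase, was at 43.6 ± 3.73 CPM in knockdown and 32.8 ± 4.69 CPM in control libraries (0.41 ± 0.18), and the taurine transporter SLC6A6 was at 184 ± 43.4 CPM in knockdown and 110 ± 4.07 CPM in control libraries (0.74 ± 0.19). SMPX, also counted as higher, is neither a polyol enzyme nor an osmolyte transporter. It was low in both groups, at 1.38 ± 0.109 CPM in knockdown and 0.848 ± 0.12 CPM in control libraries. Around AKR1C3, the prostaglandin genes had 0 of 11 higher and 1 lower with a median of −0.03 (−0.28 without knockdown replicate 2). The receptor gene PTGER4 was that one, at 6.02 ± 1.21 CPM in knockdown and 9.51 ± 0.500 CPM in control libraries (−0.66 ± 0.23). PTGS2, the inducible cyclooxygenase, had 65.4, 56.6 and 185 CPM in knockdown and 155, 183 and 174 CPM in control libraries. Its groups overlapped, with knockdown replicate 3 above every control, and its log2 fold change of −0.74 ± 0.40 lay between −1.47 and −0.44 with 1 library left out.

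Genes of steroid and retinoid conversion had 1 of 22 higher and 2 lower with a median of 0.004. With library size alone it was −0.12, against −0.13 over all genes tested. The retinol dehydrogenases RDH14 (−0.53 ± 0.18) and RDH10 (−0.45 ± 0.18) were lower in all 3 knockdown libraries, and HSD17B7 was the higher one, with overlapping groups, while the steroid reductase SRD5A1 was at 29.9 ± 2.43 CPM in knockdown and 29.1 ± 1.41 CPM in control libraries. Genes around glucuronate and succinic semialdehyde, the substrates of AKR1A1 and AKR7A2, had 1 of 7 higher and 0 lower and a median of 0.04. With library size alone it was −0.06, against −0.13 over all genes tested, and without knockdown replicate 2 it was −0.14. XYLB, a xylulose kinase, was at 9.54 ± 1.96 CPM in knockdown and 5.73 ± 0.039 CPM in control libraries (0.74 ± 0.23).

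**Figure D5:**
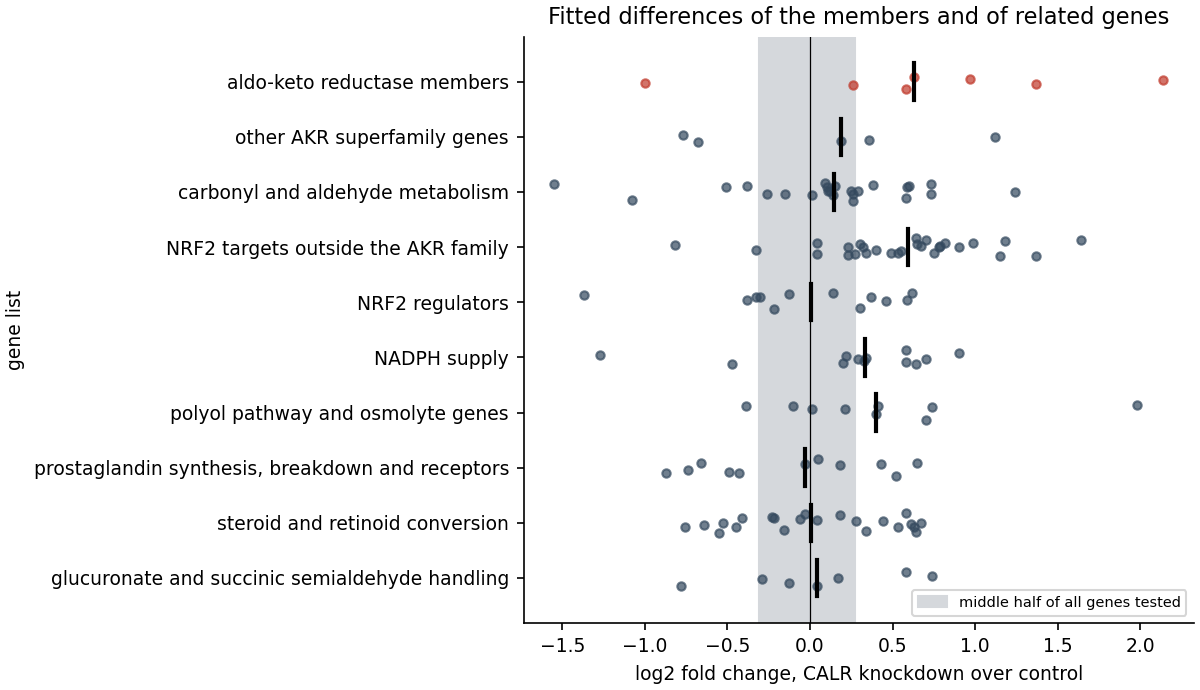
Log2 fold change of each tested gene, CALR knockdown over control, with 1 row per list, the family members in red, black bars at the medians and grey for the quartile range of all genes tested (−0.31 to 0.27). The members, chosen by this contrast, have 1 point left of 0. The NRF2 targets, listed with earlier results of these data known, have 26 of 28 points right of 0, against 8181 of 16394 genes tested. The grey band shows the spread of single genes and is no yardstick for the medians.

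For each member the genes with the most similar profile were found by the root mean square difference of log2 CPM over the 6 libraries, each gene centred on its control mean, among genes with a mean log2 CPM of at least 1. AKR1C3 was nearest to FAM225B (0.15), ALDH2 (0.17) and RP11-162P23.2 (0.19). AKR1B10 was nearest to CALB2 (0.42), HMOX1 (0.44) and APCDD1L (0.49). AKR1B1 was nearest to CD22 (0.25), OTUB2 (0.26) and EVI2A (0.29), and AKR1C1 to TMEM171 (0.12), CTD-2140B24.4 (0.16) and SPECC1L-ADORA2A (0.17). AKR1C2 was nearest to COL5A2 (0.34), IL20RB (0.36) and C10orf54 (0.38), which were also highest in control replicate 1. AKR7A2 was nearest to ENO1 (0.03), PLOD1 (0.04) and GAS2L1 (0.05), and AKR1A1 to TAB1 (0.02), ZFYVE21 (0.03) and STRN4 (0.03). Within the family, AKR1B1 and AKR1C1 were the closest pair at 0.34, and AKR1B10 and AKR1C2 the farthest at 2.04. AKR1C1 and AKR1C2, alike in sequence, were 1.02 apart.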

How the data were processed

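RNA of 3 CALR knockdown and 3 control libraries was sequenced from polyadenylated, strand-specific libraries, per the labels' protocols. The authors deposited raw read counts per gene for 31582 genes and FPKM values, rounded to 2 decimals, for 31356 genes. FastQC 0.9.5, TopHat2 and GRCh38 were used, per the submitters' processing notes, and the sources used here name neither the counting program nor its strand setting. For 3237 genes with over 2000 counts in every library, count over FPKM was 1 constant per gene times 1 per library (relative SD 1.3e-04).

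The counts were fitted with edgeR 4.0.16 under R 4.3.3 (filterByExpr, TMM, quasi-likelihood F-test without covariates, Benjamini-Hochberg over all 16394 genes tested, threshold 0.05). The function was tested on simulated data. SE is the absolute log2 fold change over the square root of F. Log2 CPM have a prior count of 2. Alternatives used DESeq2 1.42.0, limma 3.58.1, other filters and scalings, the replicate number as a block, FPKM with pseudocounts of 1 and 0.1, single libraries left out and, chosen after seeing the data, removal of each library's GC trend.

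The members and the gene lists were chosen with earlier results of these data known. Named were the 7 members, CALR, all other AKR rows, NFE2L2, KEAP1 and BACH1, up to 4 genes per list with the smallest unadjusted p under 0.05 and groups apart (the first gene where there were none), and the 3 nearest profiles of each member. NQO1, GCLC, GCLM, SLC7A11, ABCC2, PTGS2, SRD5A1, ALDH1L2, GLO1, ALDH7A1 and HSD17B7 were named after their values were seen. A gene that the rule names is not reported here. Of 31582 identifiers, 30871 matched GENCODE 29 without the version.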

Additional observations from a re-analysis of the deposited data

How the results depend on the processing

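The count of genes past the adjusted threshold, 0 in edgeR's test, was 530 with DESeq2, 988 without a low-count filter, 5 with limma on log2(FPKM + 1) without a filter and 4 after removal of the GC trend. With 1 library left out it lay between 0 and 2604, with 2604 without knockdown replicate 2 and 138 without knockdown replicate 3. Among the 7 members the count was 2 with DESeq2, 3 without a low-count filter, and 0 to 3 with 1 library left out, with 3 without knockdown replicate 2. Since the same contrast chose the members, nothing is read from these counts either. No fold change of a member turned in sign under any alternative run. The median over all genes moved to −0.13 with library size alone and to −0.11 on the log2(FPKM + 0.1) scale.

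Same-numbered libraries had correlations of their deviations from the group means of 0.20, −0.12 and −0.22, and those with unlike numbers lay between −0.20 and 0.36. Deviations from a mean of 3 libraries constrain each other, so these values cannot decide whether the numbers pair the samples. The fit with the replicate block called 0 genes, with 2209 at an unadjusted p under 0.05.

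AKR1B10 (38 to 329 counts) and AKR1C2 (64 to 376 counts) rest on few reads, and AKR1C1 and AKR1C2 on shared sequence. The spread between knockdown libraries limits every value here.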
